A study of Mus musculus with 2 samples.

Results

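The genes described here are 50 genes of DNA replication and mitosis, taken by symbol from a table of 23227 genes. All 50 were found in that table. They were split by textbook role into 25 replication members and 25 mitosis members, and all 50 had enough reads to be tested. The question was how far their messenger RNA levels differed between mouse mesenchymal stem cell lines without and with Dicer, the enzyme that cuts microRNA precursors into mature microRNAs.

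Adult murine mesenchymal stem cells with the genotype Dicer -/- (KO) were set against cells with the genotype Dicer f/f (WT), in which the alleles are floxed. All cells were immortalised monoclonal lines, so a genotype is represented by clonal cells and a difference between clones cannot be told apart from a difference in Dicer. The cell type is given as fibroblasts in the labels and the source as mesenchymal stem cells. PolyA RNA was taken from cells below confluence grown in serum, and the labels give 1 sample a genotype.

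The authors deposited 1 mean per genotype and gene, in normalised reads. Each mean resolved into whole reads of 2 libraries, called the deeper and the shallower library after their totals. The KO libraries held 15718369 and 14969532 reads in genes and the WT libraries 15369250 and 14135422. Nothing in the labels says how the 2 libraries of a genotype relate, so whether the spread between them is technical or biological is not known. Where a genotype has a pair of values, they are those of the deeper and then the shallower library. Dicer1 had 565 normalised reads in KO (573 in the deeper and 557 in the shallower library) against 873 in WT (804 and 943), at 0.647 of the WT mean. The adjusted p for Dicer1 was 0.497 in the authors' deposited table and 0.137 in limma, a linear model with moderated variances fitted to the 4 libraries. The file gives 1 value for the whole gene and none for the deleted exons alone. Of 12 mesenchymal markers, 11 had a mean of at least 20 normalised reads, while Thy1 had 0 reads in all 4 libraries, which allows up to 2.76 to 3.36 normalised reads a library. Summed, the 12 markers had 106640 and 128896 normalised reads in the KO libraries and 177032 and 215357 in the WT libraries. Of the 11, 5 had a ratio above 1 and 6 below 1, and the markers called lower by size and in the authors' deposited table were the collagen genes Col1a1 (0.432) and Col1a2 (0.486). Some markers differed between the libraries alike in both genotypes. Vim had 20955 and 40198 in KO and 32671 and 56092 in WT, and S100a4 had 2088 and 1252 in KO and 1932 and 603 in WT. Of the 11, 6 were lower in the deeper KO library and 5 in the deeper WT library. Of 8 haematopoietic, 6 endothelial and 6 epithelial markers, 1, 0 and 0 had a mean that high, the exception being Cd14. Cd3e, Epcam and Cldn4 had 0 reads in all 4 libraries.

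Before a cell can copy its DNA, origins are bound by the origin recognition complex and loaded with the MCM helicase, a step called licensing. The helicase is then activated, polymerases copy the strands, and cyclins with their kinases drive the steps in order. In mitosis, the spindle captures chromosomes at kinetochores, and a checkpoint holds the cell until all are attached. Transcripts of both programmes are low in resting cells and high in dividing ones, so together they serve as a measure of proliferation in bulk RNA. In bulk RNA, fewer dividing cells and less RNA per dividing cell cannot be told apart.

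As a group the 50 members stood at nearly the same level in KO as in WT. A member was called by size when its ratio of KO over WT was at least 2 or at most 0.5 and the 95% exact (Clopper-Pearson) interval of the ratio excluded 1. Cdc25b was higher and Cenpa was lower, and the other 48 members were neither. Over all 11710 tested genes this rule called 8.92% higher and 8.56% lower. The authors' deposited table, read at an adjusted p of 0.1, also called Cdc25b higher and Cenpa lower and no other member, against 5.56% of tested genes called higher and 5.34% called lower.

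The ratio was above 1 for 24 members and below 1 for 26. The counting interval lay wholly above 1 for 19 members and wholly below 1 for 20, where it did for 40.4% and 40% of all tested genes. The median log2 ratio was 0.02 for the replication members and -0.01 for the mitosis members, beside -0.01 over all tested genes. Leaving out 1 library at a time moved these medians to either side of 0, between -0.14 and 0.16 for the replication members and between -0.21 and 0.16 for the mitosis members. Of the members, 44 of 50 (88.0%) had a ratio within 1.5-fold of 1, and so had 64.7% of all tested genes. The median absolute log2 ratio was 0.26 across members and 0.40 across all tested genes. The quartiles of the log2 ratio were -0.37 and 0.20 for members, beside -0.41 and 0.40 for all tested genes, as a description of genes that are not replicates. The tested genes reach down to a mean of 20 normalised reads, and were not matched to the members by expression level. Ccne2, among the members with the fewest reads, had a mean of 372 in KO and 362 in WT. How far the narrower spread of the members follows from their read levels was not tested.

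**Figure D1:**
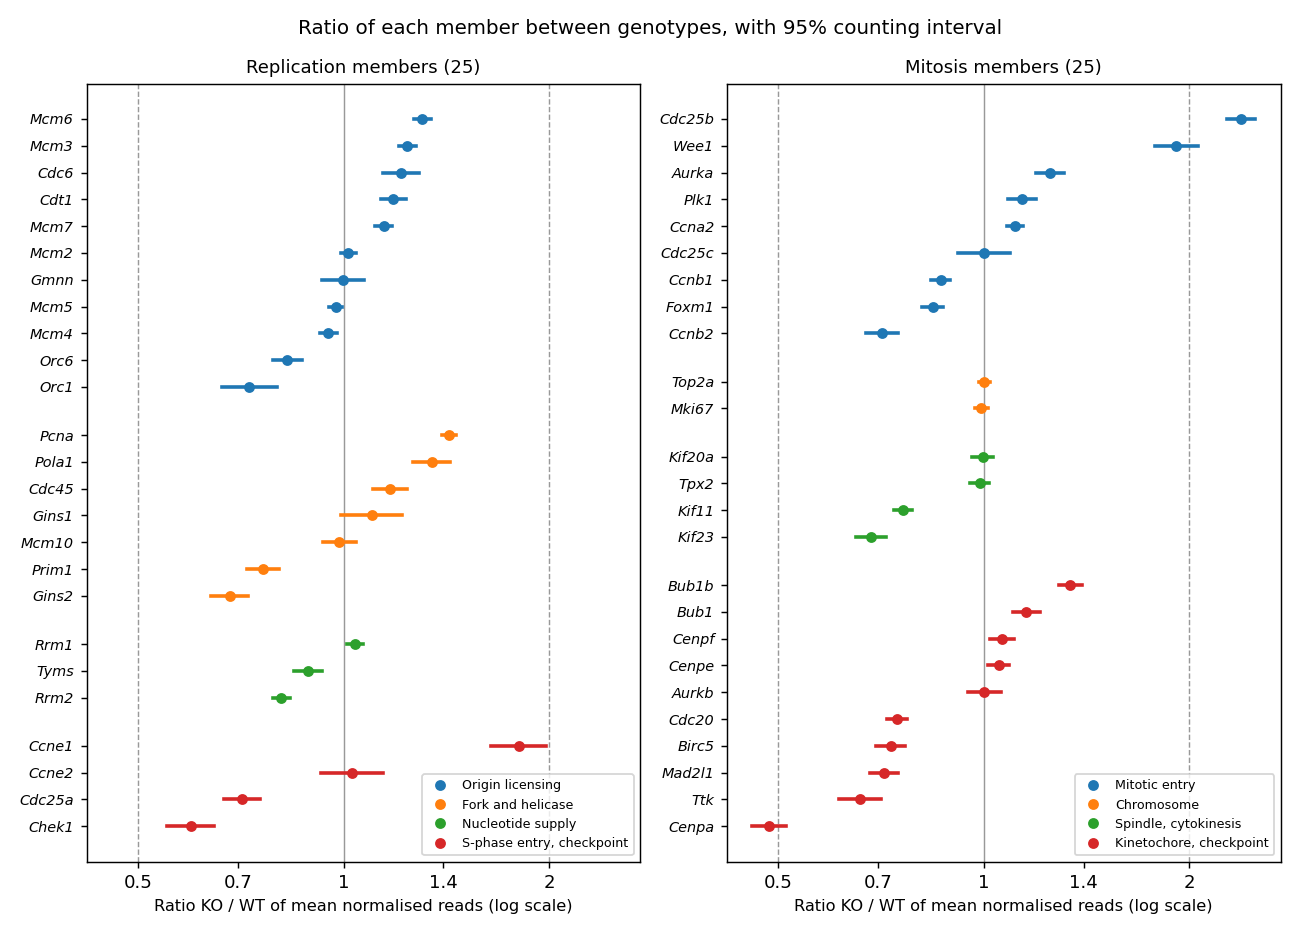
Ratio of KO over WT of the mean normalised reads for each of the 25 replication members (left) and the 25 mitosis members (right), on a log axis, grouped by role. Points are ratios, lines are 95% counting intervals, and dashed lines mark 0.5 and 2. Only Cdc25b (2.38) lies beyond 2 and only Cenpa (0.485) lies beyond 0.5.

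**Figure D2:**
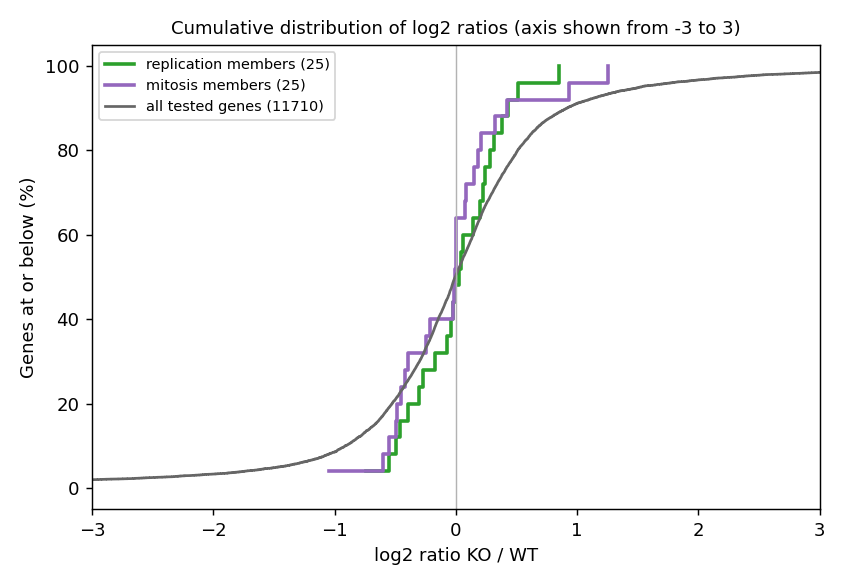
Percentage of genes at or below each log2 ratio of KO over WT for replication members, mitosis members and all 11710 tested genes, with the axis shown from -3 to 3. The member curves cross the middle near 0 like all tested genes, and are steeper. The tested genes were not matched to the members by expression level.

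A fit on the 4 libraries, read at a stricter threshold than the authors' deposited table, gave fewer calls. With an adjusted p of 0.05 as the threshold, a limma fit on log2 values of the 4 libraries called 0 members in either direction. Among tested genes it called 3.55% higher and 3.65% lower. The limma adjusted p lay between 0.05 and 0.1 for Cdc25b (0.0622), Ccne1 (0.0719) and Wee1 (0.0828), all higher in KO. The authors' deposited table was read at 0.1, so the numbers of calls are not at like thresholds. At an unadjusted p under 0.05, limma had 4 members higher and 3 lower, where 13.6% and 13.4% of all tested genes were. A second form of limma, with the prior variance as a trend on expression, called Cdc25b higher and no member lower. For 12 members every KO value exceeded every WT value, for 14 members every KO value was the smaller, and for 24 the groups overlapped. Over all tested genes those first 2 shares were 30.4% and 28.8%.

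No gene of origin licensing passed a test. The origin recognition subunit genes Orc1 and Orc6 had ratios of 0.728 and 0.827. Cdc6 and Cdt1, which load the helicase onto origins, had ratios of 1.21 and 1.18, and Gmnn, whose product geminin blocks Cdt1, had a ratio of 0.997. The 6 helicase genes Mcm2 to Mcm7 kept within a narrow range, from 0.95 for Mcm4 to 1.30 for Mcm6. None of these 11 genes was called by size, in the authors' deposited table or by limma. Mcm6 had 5547 normalised reads in the deeper and 5735 in the shallower KO library, against 3964 and 4691 in WT. Mcm3 had 5392 and 6335 in KO, against 4365 and 5088 in WT. For both genes the KO libraries were the higher ones and did not overlap with WT. Mcm5 had 7920 and 9115 in KO, against 7713 and 9784 in WT, where the groups overlapped. The Mcm7 gene also carries microRNA genes, and its annotated exons overlap those of Mir93 and Mir25 on the same strand.

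At the fork, Pcna, the sliding clamp of the polymerases, had one of the 3 highest ratios of the replication members. It had 7821 and 8040.4 normalised reads in the KO libraries, against 5367 and 5748 in WT. All KO values lay above all WT values, and their ratio was 1.43 (interval from 1.39 to 1.46). The authors' deposited table gave an adjusted p of 0.606 and limma one of 0.163, so the difference did not pass. Pola1, the catalytic subunit of the polymerase that starts new strands, had 1119 and 1251 in KO, against 810 and 952 in WT, a ratio of 1.35 that did not pass either. Cdc45, a cofactor of the helicase, had a ratio of 1.17, Gins1 1.1 and Mcm10 0.985. Prim1, the primase that lays down RNA primers, was on the other side with 1011 and 1272 in KO, against 1445 and 1550.5 in WT. Gins2, a subunit of the GINS complex that activates the helicase, had 655 and 1063 in KO, against 1119 and 1401 in WT. For Prim1 and Gins2 the KO libraries were the lower ones without overlap, with ratios of 0.762 and 0.681, and neither passed in the authors' deposited table or in limma.

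The 3 nucleotide supply genes had ratios near or below 1. Rrm1 and Rrm2 encode the subunits of ribonucleotide reductase, which makes deoxynucleotides, and had ratios of 1.04 and 0.811. Tyms, which makes thymidylate, had a ratio of 0.887. In each of the 3 the genotypes overlapped. Rrm2 had 3208 and 5486 normalised reads in the KO libraries, against 5265 and 5459.7 in WT, so the deeper KO library alone was low.

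The S-phase entry and checkpoint genes differed most among the replication members. Ccne1, cyclin E1, which activates Cdk2 at the start of S phase, had 609.8 and 659.7 normalised reads in KO, against 347 and 357 in WT. The KO values were both above the WT values, and their ratio was 1.80 (interval from 1.64 to 1.98). The limma log2 difference was 0.85 with a standard error of 0.17 and an adjusted p of 0.0719, and the authors' deposited table gave an adjusted p of 0.218. Ccne2, the second cyclin E gene, had 321 and 423 in KO, against 343 and 380.1 in WT, with a ratio of 1.03 and overlapping genotypes. Chek1, the checkpoint kinase that answers stalled forks, had 458 and 508 in KO, against 679 and 941 in WT. All KO values lay below all WT values, with a ratio of 0.597 (interval from 0.551 to 0.647), an adjusted p of 0.342 in the authors' deposited table and one of 0.158 in limma. Cdc25a, a phosphatase that activates the S-phase kinases, had 797 and 1035 in KO, against 1227 and 1354 in WT, a ratio of 0.71 that did not pass.

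Among mitotic entry genes, Cdc25b had the highest ratio of all 50 members. It encodes a phosphatase that removes the inhibitory phosphates from cyclin-dependent kinases before mitosis. Cdc25b had 2402 and 3313 normalised reads in the KO libraries, against 1187 and 1215 in WT. The KO libraries were both higher, by a ratio of 2.38 (interval from 2.27 to 2.50). In the authors' deposited table the adjusted p was 0.0106. The limma log2 difference was 1.23 with a standard error of 0.23 and an adjusted p of 0.0622. The ratio came to 2.00, just under the threshold, without the shallower KO library. Exons of Cdc25b overlap with those of Spef1 on the other strand, and the strand setting of the counting is not given in the sources used here. Spef1 had 30.4 and 40.8 normalised reads in KO, against 42.4 and 39.2 in WT.

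Wee1, a kinase that places an inhibitory phosphate that Cdc25 enzymes remove, had the second highest ratio. It had 1129.5 and 1062 normalised reads in KO, against 644 and 502 in WT, again without overlap. The ratio of 1.91 (interval from 1.78 to 2.06) lay just under the 2-fold line, with an adjusted p of 0.129 in the authors' deposited table and 0.0828 in limma. It was 2.18, past the threshold, without the deeper WT library. Among the cyclins of mitosis, Ccna2 had 4368 and 7621 in KO, against 4822 and 5981 in WT, so the KO libraries lay on either side of WT. Ccnb1 had a ratio of 0.864, also with overlap, and Ccnb2 one of 0.709. Ccnb2 had 969 and 1264 in KO, against 1549 and 1602 in WT, lower in both KO libraries without overlap. Foxm1, a transcription factor of mitotic genes, had a ratio of 0.842, and the mitotic kinase genes Plk1 and Aurka had ratios of 1.14 and 1.25. Cdc25c, the third phosphatase of the family, had a ratio of 0.999. None of Ccna2, Ccnb1, Ccnb2, Foxm1, Plk1, Aurka and Cdc25c was called by any rule.

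The common proliferation markers did not separate the genotypes. Mki67, which codes for the antigen Ki-67, had 7064 and 9188 normalised reads in KO, against 8097 and 8295 in WT, a ratio of 0.991 (interval from 0.97 to 1.01). Top2a, the topoisomerase that untangles chromosomes, had 10676 and 14004 in KO, against 12398 and 12238 in WT, a ratio of 1.00 (0.984 to 1.02). In both genes the KO libraries fell on either side of the WT libraries. The spindle genes Kif20a and Tpx2 had ratios of 0.996 and 0.986. Kif11, the motor that pushes spindle poles apart, had a ratio of 0.762, with both KO libraries below WT. Kif23, a motor of cytokinesis, had 908 and 1777 in KO, against 1750.5 and 2181 in WT. Its ratio of 0.683 became 0.462, past the threshold, when the shallower KO library was left out. It was 0.904 when the deeper one was.

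Cenpa was the lowest member. It encodes the histone H3 variant that marks centromeres, on which the kinetochore is built. Cenpa had 603 and 1142 normalised reads in the KO libraries, against 1639.6 and 1962 in WT. The KO libraries were both lower, by a ratio of 0.485 (interval from 0.458 to 0.513). In the authors' deposited table the adjusted p was 0.0514. The KO libraries also differed from each other by nearly as much. The limma log2 difference was -1.11 with a standard error of 0.37 and an adjusted p of 0.16. The call by size was lost without the deeper KO library (ratio 0.634), without the shallower WT library (0.532) and with scaling by library totals (0.505), and the ratio was 0.335 without the shallower KO library.

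The other kinetochore and checkpoint genes went both ways. Ttk, a kinase of the spindle checkpoint, had 549 and 709 in KO, against 893 and 1017 in WT, a ratio of 0.659. Bub1b, which codes for the checkpoint protein BubR1, had 3077 and 3117 in KO, against 2281 and 2349 in WT, a ratio of 1.34. Neither passed in the authors' deposited table (adjusted p of 0.517 and 0.77) or in limma (0.182 and 0.214), though the libraries of the genotypes did not overlap. The checkpoint gene Mad2l1 and its target Cdc20, an activator of the anaphase-promoting complex, had ratios of 0.713 and 0.746 with both KO libraries below WT. Bub1 was at 1.154, the large kinetochore proteins Cenpe and Cenpf at 1.05 and 1.06, and the kinase gene Aurkb at 1.00. Birc5, which encodes survivin, had 989 and 1809 in KO, against 1732 and 2101 in WT, with a ratio of 0.73.

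**Figure D3:**
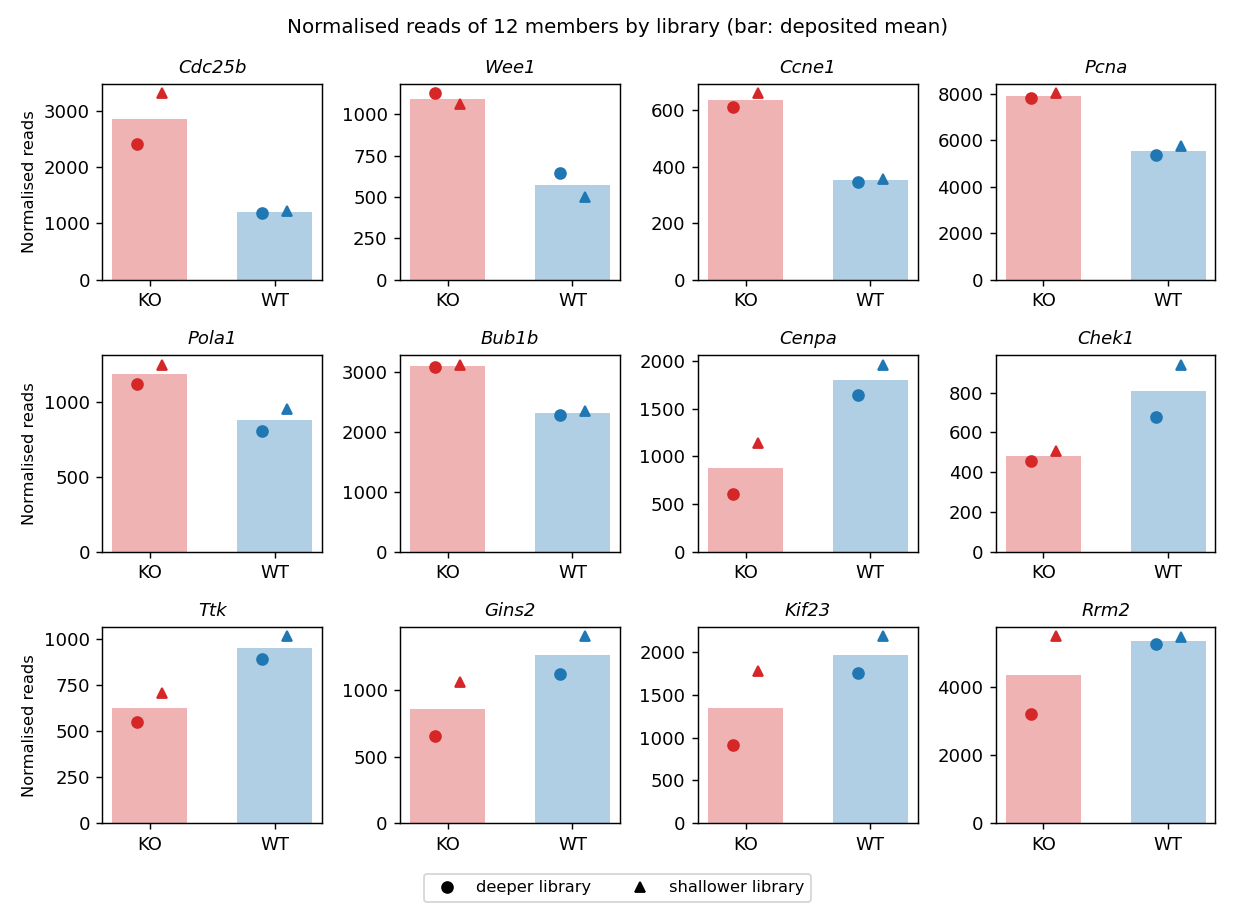
Normalised reads of 12 members in KO (left) and WT (right). Bars are the deposited means, circles the deeper and triangles the shallower library of each genotype. Cdc25b, Wee1, Ccne1, Pcna, Pola1 and Bub1b lie higher in both KO libraries, Cenpa, Chek1, Ttk and Gins2 lie lower in both, and the genotypes overlap for Kif23 and Rrm2.

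The members moved together between the libraries of 1 genotype. Normalised reads were lower in the deeper than in the shallower KO library for 46 of the 50 members (92.0%), beside 48.6% of all tested genes. Likewise they were lower in the deeper WT library for 45 members (90.0%), beside 48.4% of all tested genes. The median log2 difference of deeper minus shallower was -0.39 for the mitosis members in KO and -0.09 in WT, and 0.02 and 0.01 over all tested genes. For the replication members it was -0.20 in KO and -0.17 in WT. In KO, Kif23, Cenpa, Birc5, Ccna2 and Rrm2 were furthest apart, with the deeper library at 0.511, 0.528, 0.547, 0.573 and 0.585 of the shallower. These 5 were chosen for the size of that difference. The size of the difference between genotypes, as the median absolute log2 ratio, was 0.27 for the replication members and 0.25 for the mitosis members. That measure drops the sign and uses genotype means, so it is not like the signed medians between libraries. As signed medians, the genotype differences were 0.02 and -0.01. The labels give no batch, and what sets the libraries apart was not tested.

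**Figure D4:**
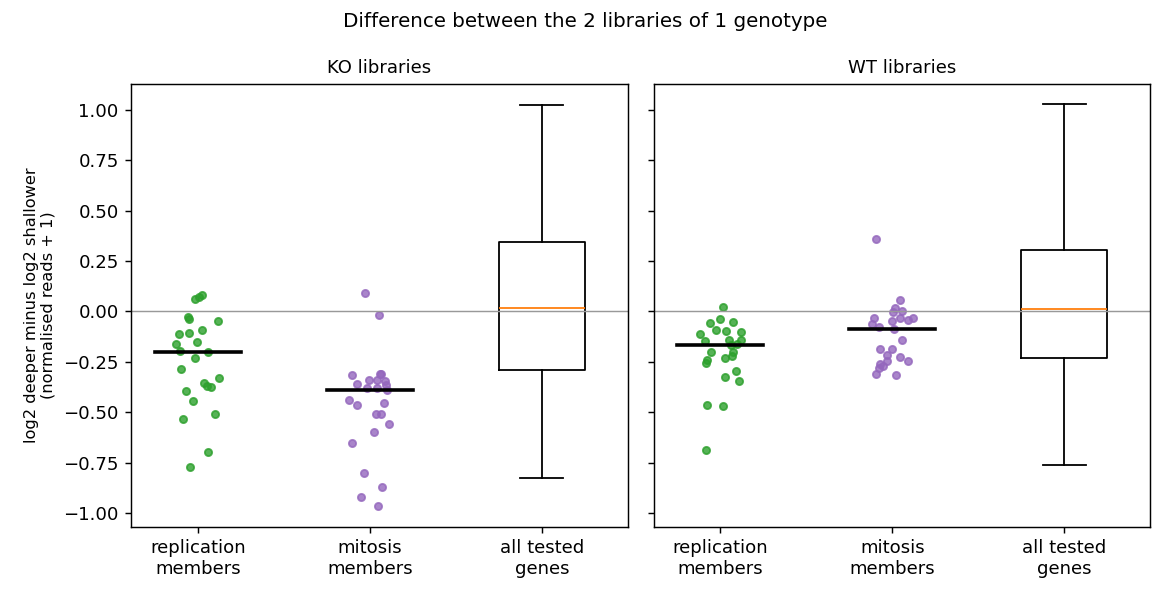
Log2 difference of normalised reads (+1) between the deeper and the shallower library, for the KO libraries (left) and the WT libraries (right). Points are members and thick lines their medians, and the box shows the quartiles of all tested genes with whiskers at the 5th and 95th percentiles. Most members lie below 0 in both genotypes, with the mitosis members lowest in KO at a median of -0.39.

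Other genes of the same processes, listed from textbook function, were also rarely called. Of 41 further replication genes, 0 were higher and 1 was lower by size. The authors' deposited table, read at 0.1, called the same numbers, while limma, read at 0.05, called 0 in either direction. Of 57 further mitosis genes, 0 were higher and 2 were lower by size and in the authors' deposited table, and limma called 0. Beyond the genes called, the limma adjusted p lay between those thresholds for Pola2 (0.0816) and Gins3 (0.0975), both lower. It also did for Rfc3 (0.0897) and Cenpo (0.0925), both higher. The background was 8.92% higher and 8.56% lower by size. At an unadjusted p under 0.05, limma had 5 of these 98 genes higher and 10 lower, where it had 13.6% and 13.4% of all tested genes. The median log2 ratio was -0.06 for the further replication genes and -0.12 for the further mitosis genes. Of the 57 mitosis genes, 39 (68.4%) were at a ratio below 1, beside 50.4% of all tested genes. Their median log2 ratio was -0.25 between the deeper libraries of KO and WT, and 0.06 between the shallower ones. In KO, 94.7% of them were lower in the deeper than in the shallower library, beside 48.6% of all tested genes.

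The called genes were Tipin, Spc24 and Kif15. Spc24, a subunit of the kinetochore's NDC80 complex, had 227 and 394 normalised reads in KO, against 808 and 902 in WT. Its ratio was 0.363 (interval from 0.331 to 0.398), with adjusted p = 0.00294 in the authors' deposited table. Kif15, a spindle motor, had 587 and 758 in KO, against 1312 and 1583 in WT, a ratio of 0.465. Tipin, a protein that steadies stalled forks, had 630.1 and 874 in KO, against 1537 and 1636 in WT, a ratio of 0.474. In all 3 genes the KO libraries were both lower, and the adjusted p in the authors' deposited table was 0.0386 for Kif15 and 0.0429 for Tipin. The limma adjusted p was between 0.0737 and 0.0772 for the 3. Without the deeper KO library the ratios of Kif15 and Tipin were 0.524 and 0.551, and without the shallower WT library that of Kif15 was 0.513, so those calls were lost.

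Subunits of 1 complex did not all have the same ratio. The partners named next were chosen because they share a complex with a member, after their values were seen. In the polymerase alpha-primase complex, Pola1 and Prim2 had ratios of 1.35 and 1.03, while Pola2 and Prim1 had 0.581 and 0.762. In GINS, Gins1 and Gins4 had 1.1 and 1.21, while Gins2 and Gins3 had 0.681 and 0.559. In the chromosomal passenger complex, which corrects faulty attachments, Aurkb had a ratio of 1.00 and Birc5, Incenp and Cdca8 had 0.73, 0.663 and 0.662. None of these 12 genes was called by any rule, and the differences between subunits were not tested.

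**Figure D5:**
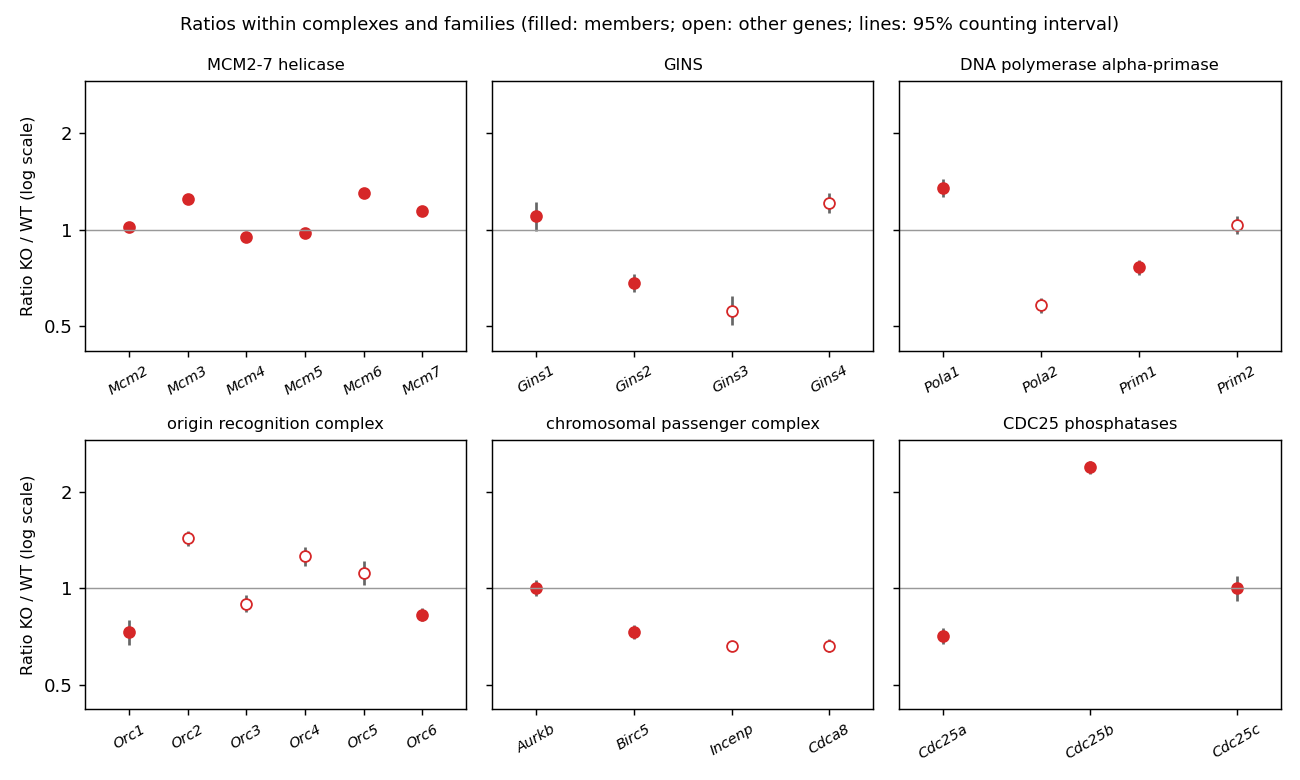
Ratio of KO over WT on a log axis for subunits of 5 complexes and for the Cdc25 phosphatases. Filled points are members, open points other genes, and lines 95% counting intervals, mostly hidden by the points. The helicase subunits lie between 0.95 and 1.30, while GINS and polymerase alpha-primase subunits lie on both sides of 1 and Cdc25b stands apart from Cdc25a and Cdc25c.

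The members shared promoter sequence by role. Promoter windows of 300 bases (250 before and 50 after the gene start, RefSeq, GRCm38.p6) were at hand for 38 of the 50 members, 20 of replication and 18 of mitosis. On both strands, the windows were searched for the CHR motif TTTGAA, known from genes that peak in mitosis, for the CCAAT box, and for E2F-like motifs, known from genes of S phase. The E2F-like motif was counted when spelled as TTCCCGC, or with the letters TTCGCGC, or else as the form TTGCCGC, or finally in the spelling TTGGCGC. E2F-like motifs can overlap each other on opposite strands. An E2F-like motif was found for 13 of the 20 replication members (65.0%) and 2 of the 18 mitosis members (11.1%), beside 20.1% of the 8428 tested genes with a window. The CHR motif was found for 2 replication members (10.0%) and 12 mitosis members (66.7%), beside 14.0% of tested genes. The CCAAT box was found for 75% and 88.9%, beside 43.9%. All 14 members with a CHR motif also had a CCAAT box in the window.

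The windows of Mcm6 and Ccnb2 show the patterns of replication and mitosis genes, and those of Cenpa and Cdc25b belong to the called members. Capitals mark the motifs. They lie at chr1:128359656-128359955 (minus strand) for Mcm6, chr9:70421505-70421804 (minus strand) for Ccnb2, chr5:30666636-30666935 (plus strand) for Cenpa and chr2:131186698-131186997 (plus strand) for Cdc25b.
Mcm6: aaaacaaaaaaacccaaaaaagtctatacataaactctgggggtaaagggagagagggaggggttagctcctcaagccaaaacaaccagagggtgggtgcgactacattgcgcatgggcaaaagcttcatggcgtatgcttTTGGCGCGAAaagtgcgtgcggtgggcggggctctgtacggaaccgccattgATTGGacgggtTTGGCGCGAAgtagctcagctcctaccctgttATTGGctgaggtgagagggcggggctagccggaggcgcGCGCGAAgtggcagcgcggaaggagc
Ccnb2: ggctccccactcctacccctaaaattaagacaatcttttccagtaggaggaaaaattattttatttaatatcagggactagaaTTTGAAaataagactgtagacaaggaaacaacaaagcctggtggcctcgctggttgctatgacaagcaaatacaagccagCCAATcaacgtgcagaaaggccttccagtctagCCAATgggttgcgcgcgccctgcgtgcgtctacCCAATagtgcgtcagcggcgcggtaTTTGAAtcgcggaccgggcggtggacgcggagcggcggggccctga
Cenpa: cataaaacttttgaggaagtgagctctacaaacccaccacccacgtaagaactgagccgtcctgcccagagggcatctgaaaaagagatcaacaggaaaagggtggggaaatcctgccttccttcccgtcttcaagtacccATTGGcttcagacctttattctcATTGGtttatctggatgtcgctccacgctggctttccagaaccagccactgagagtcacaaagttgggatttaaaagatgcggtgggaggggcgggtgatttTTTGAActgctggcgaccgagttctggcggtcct
Cdc25b: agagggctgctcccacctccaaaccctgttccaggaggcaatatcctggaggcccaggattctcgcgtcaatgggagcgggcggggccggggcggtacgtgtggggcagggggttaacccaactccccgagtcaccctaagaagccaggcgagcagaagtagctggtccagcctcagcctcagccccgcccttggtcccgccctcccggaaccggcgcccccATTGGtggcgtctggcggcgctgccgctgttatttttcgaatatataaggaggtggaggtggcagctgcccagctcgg
Mcm6 holds 7 matches, of which 5 are E2F-like and 2 are CCAAT boxes. Ccnb2 holds 3 CCAAT boxes and 2 CHR motifs, and Cenpa 2 CCAAT boxes and 1 CHR motif. Cdc25b holds 1 CCAAT box. Members with and without the motifs overlapped in their ratios. The 12 mitosis members with a CHR motif had ratios from 0.485 to 1.34 with a median of 0.877, and the 6 without had ratios from 0.713 to 2.38 with a median of 0.958. The 13 replication members with an E2F-like motif had a median ratio of 1.04 and the 7 without one of 1.02. These matches describe sequence and do not show that a factor binds there.

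Since Dicer makes microRNAs, members known as microRNA targets were looked at as well. In human cells, Cdc25a, Cdc6, Rrm2 and Ccna2 have been described as targets of let-7, and elsewhere Ccne1, Cdc25a, Wee1 and Chek1 as targets of the miR-15/16 family and Ccne2 of miR-26. The mature mouse sequences (RefSeq, GRCm38.p6) are shown with the seed, bases 2 to 8, in capitals, since the seed defines the sites that were searched. The miR-15a and miR-16 microRNAs share 1 seed.
let-7a: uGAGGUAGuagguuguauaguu
miR-15a: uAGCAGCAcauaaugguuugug
miR-16: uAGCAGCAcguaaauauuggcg
miR-26a: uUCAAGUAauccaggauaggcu
Sites of 7 bases complementary to the seed were sought in 1 UTR per gene, the longest 3' UTR annotated (GENCODE release M21 transcripts, GRCm38). A let-7 site was present in 5 of the 50 members (10.0%), beside 12.1% of tested genes with a UTR. A miR-15/16 site was present in 10 members (20%), beside 27.9%, and a miR-26 site in 5 (10.0%), beside 12.4%.

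The let-7 sites of the members are shown in capitals with the bases around them.
Birc5: ctttaaagtggCTACCTCtctttggtttt
Cdc25a: catcctaggagCTACCTCtacttttaatt
Cenpa: tttgaggacgcCTACCTCctctccttaca
Kif11: aggctgtttccCTACCTCtaaccagcctt
Rrm2: aagctgtgtagCTACCTCagtcctgtttg
All 5 genes had a ratio below 1, as had 50.4% of all tested genes. The 5 ratios ran from 0.485 for Cenpa to 0.811 for Rrm2, with a median of 0.73. The median over all 1252 tested genes with a let-7 site was a ratio of 1.1. Only Cenpa was called. Without the deeper KO library the ratio was 1.02 for Rrm2, 0.802 for Cdc25a and 0.634 for Cenpa. The libraries of the genotypes overlapped for Birc5 and Rrm2, and did not for Cdc25a, Cenpa and Kif11. Cdc6 and Ccna2, described as let-7 targets in human cells, had no such site in the UTR searched. Cdc6 had 1073 and 1231 normalised reads in KO, against 896 and 1001 in WT, higher in both libraries without a call.

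The miR-15/16 sites of Ccne1, Wee1, Chek1 and Cdc25b are shown because among members with such a site they had the 3 highest ratios and the lowest.
Ccne1: tattttgtaagTGCTGCTatgtctatcaa
Wee1, first site: ctgtggtggtgTGCTGCTtctcattcact
Wee1, second site: ccttgtgaattTGCTGCTattttagtttc
Chek1: ggtgaatagagTGCTGCTatgtgacattt
Cdc25b: tggtcagcactTGCTGCTgggcaatggac
Of the 10 members with such a site, 5 had a ratio above 1 and 5 below 1, with a median of 0.972. The median over all 2897 tested genes with such a site was a ratio of 1.06. Cdc25b (2.38), Wee1 (1.91) and Ccne1 (1.80) had the highest ratios of the 50 members, and all 3 carry the site. Chek1 carries it as well, and its ratio of 0.597 was the second lowest of the 50. Gins2 (0.681), Kif23 (0.683), Cdc25a (0.71) and Birc5 (0.73) also carry it, with ratios below 1. The 5 members with a miR-26 site had ratios from 0.597 to 1.80. A site in a UTR does not show that the microRNA acts on it, and microRNAs were not measured in these files.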

How the data were processed

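PolyA RNA of 1 KO and 1 WT sample, per the labels, was sequenced as paired reads of 50 bases. TopHat 1.4.0, DESeq 1.10.1 and the build mm9 are listed, with no role or order, per the submitters' processing notes. Which program counted reads, and on which annotation, is not given in the sources used here. The authors deposited 1 table, which per the file headers holds, as a signal per gene, the mean normalised read count of conditions A and B, their ratio (fold), its log2 value, a p-value and an adjusted p-value. The table's title puts WT before KO, so A was taken to be WT and B to be KO. Every direction rests on this.

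Each deposited mean was resolved into whole reads of 2 libraries per genotype (tolerance 1e-08 of a read), with exactly 1 solution for 100% of genes above 0. Genes with a mean of at least 20 normalised reads were tested (11710). Intervals are 95% exact (Clopper-Pearson) ones from the reads. They cover counting error only, as reads are not independent molecules, and the floor for a count of 0 is 3 reads. limma 3.58.1 (R 4.3.3) was run on log2(normalised reads + 1) over all tested genes with Benjamini-Hochberg adjustment. The authors' p-values were copied. Scripts were tested on simulated data.

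Members and gene lists were chosen with earlier results of these data known. All members are reported. Full values go to members called by either rule, the 3 highest and 3 lowest ratios of each role and published microRNA targets, and to further pathway genes that were called. Outside that rule, values by library are also given for Mcm3, Mcm5, Mcm6, Prim1, Ccnb2, Mki67, Top2a and Birc5. Alternatives left out each library, rescaled by library totals or upper quartile, and changed the filter, fold, p threshold, pseudocount, variance prior and block. The variance prior as a trend was added after the data were seen. Exon overlap with another gene in GENCODE M21 was found for 14 of the 50 members. Besides Cdc25b, they include Gins2 (with Gse1), Ccna2 (Exosc9), Ccne2 (Ints8) and Cdc20 (Elovl1), each with a gene on the other strand. The limit given for Cdc25b holds for them too. Pseudogenes are annotated in RefSeq for Ccnb1, Ccnb2, Tyms and Pcna, and how the counting treated such reads is not given in the sources used here. Promoter windows were not used for Kif20a, Tpx2, Ccna2, Ccne2, Cdc25c, Mcm4, Gmnn, Gins1, Aurkb, Wee1, Gins2 and Foxm1.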

Additional observations from a re-analysis of the deposited data

How the results depend on the processing

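The number of members called higher by size was 1 (Cdc25b). It was 3 at a threshold of 1.5-fold (with Ccne1 and Wee1) and lay between 0 and 2 as each library was left out. The number called lower was 1 (Cenpa). It was 3 at 1.5-fold (with Chek1 and Ttk), 0 with scaling by library totals, and between 0 and 2 as each library was left out. At an adjusted p of 0.05, the authors' deposited table called 1 member higher and 0 lower. The limma fit called 0 members in either direction, 1 higher with a variance trend, and 3 higher (Ccne1, Cdc25b, Wee1) and 1 lower (Cenpa) with the depth rank of the libraries as a replicate block. That pairing was read from the data and not from the labels. Over all tested genes that block raised the limma calls to 1288 higher and 1333 lower, where the fit without it called 416 and 427. With either KO library left out, limma called 0 of all tested genes, with 1 KO library assumed to vary like the WT libraries.

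The median log2 ratio of the replication members was 0.087 with scaling by library totals, where that of all tested genes was 0.06, and ran from -0.14 to 0.16 as each library was left out. That of the mitosis members ran from -0.21 to 0.16. Of 133 alternative values for 19 named genes, those at the 1.5-fold threshold repeat the main ratio and could not cross 1. Among the 133, 5 lay on the other side of 1. They were Ccna2 without the shallower KO library (0.809), Rrm2 without the deeper KO library (1.02), and Ccne2 without the shallower KO library (0.888), without the deeper WT library (0.979) and with upper quartile scaling (0.997). As each library was left out, the ratio ran from 0.809 to 1.41 for Ccna2, from 0.888 to 1.17 for Ccne2 and from 0.598 to 1.02 for Rrm2. The cause was not tested. A further 7 lost and 6 gained the call by size. The gains of Ccne1, Wee1, Chek1 and Ttk at 1.5-fold come from the lower threshold alone, as the ratio is the same. The rest were Wee1 without the deeper WT library (2.18) and Kif23 without the shallower KO library (0.462). The counting intervals beside the ratios show the limit set by read depth alone.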
